A study of Mus musculus with 16 samples.

Results

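Alveolar type 1 cells are the thin, very flat epithelial cells that line most of the gas-exchange surface of the lung, and they lie against the capillaries on a shared basement membrane. They arise during late gestation and early postnatal life from distal epithelial progenitors that also give rise to the surfactant-making type 2 cells. Glucocorticoids speed the thinning of the alveolar wall before and after birth, and dexamethasone is a synthetic glucocorticoid that acts through the glucocorticoid receptor.

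The genes described here are 10 markers of these cells, namely Hopx, Aqp5, Pdpn, Ager, Rtkn2, Akap5, Clic5, Emp2, Cldn18 and Gprc5a. They were taken as every probe set (a group of short probes against 1 transcript) that the array's annotation gives a member's symbol. All 10 were found, with 20 probe sets of the 45101 on the array, and 10 of 18193 named genes. Hopx, Ager and Cldn18 had 2 probe sets each, Akap5 and Emp2 had 3, and Clic5 had 4. The remaining 4 members had 1 probe set each. Where 1 value per gene is given, it comes from the gene's brightest probe set over all arrays.

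RNA was measured on 16 Affymetrix arrays from C57BL/6J mice whose whole organs were taken at postnatal day 7. The 4 groups were whole lung after dexamethasone, whole lung after vehicle, whole cerebellum after dexamethasone and whole cerebellum after vehicle, with 4 biological replicates in each. The sources used here do not give the dose, the schedule, or the animals' sex and litter. The cerebellum has no alveoli and serves here as the organ in which type 1 cells are absent. In whole organs, fewer cells of a type and less RNA per cell cannot be told apart.

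Values are log2 intensities, so a difference of 1 is a 2-fold change, and they ran from 3.153 to 14.83 over the whole table with array medians of 5.87 to 6.00. Arrays of the same tissue correlated at 0.946 to 0.996 over all probe sets. Array B46 of the dexamethasone lungs and array B39 of the dexamethasone cerebella had the lowest mean correlation with their own group in each organ, at 0.980 and 0.988. RNA integrity, read as the log2 signal of the 3′ minus that of the 5′ control probes, differed between the lung groups. For Gapdh this was 0.446 to 0.708 with dexamethasone and 0.84 to 1.04 with vehicle, so the groups did not overlap, and for actin 0.451 to 0.642 and 0.611 to 0.667. The part of RNA integrity in the lung results was not tested. The array numbers also run with treatment, from B12 to B22 in vehicle and B28 to B46 in dexamethasone lungs, and from B39 to B52 in dexamethasone and B78 to B81 in vehicle cerebella. Whether the numbers mark litters or days is not known here, and anything that runs with them cannot be told apart from treatment. P-values measure only the spread between these samples, and the number of arrays limits their precision. A change was called where the adjusted p of limma was under 0.05.

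The vehicle groups were compared first. All 10 members were higher in vehicle lung than in vehicle cerebellum, as were all 20 of their probe sets, beside 28% of all genes and 23.5% of all probe sets. All 8 endothelial, all 5 mesothelial and all 6 general epithelial markers were also higher in vehicle lung. Of 7 airway markers 5 were higher and none lower, and of 4 lymphatic markers 3 were higher and 1 lower. The comparison therefore shows enrichment in lung and cannot tell which lung cells carry the members. The measured log2 difference had a median of 4.61 over the members, against 0.002 over all genes. For 6 members the vehicle cerebellum lay below the array medians, so no fold is given. Ager, the receptor for advanced glycation end products, stood at 5.44 ± 0.40 in vehicle cerebellum and 13.97 ± 0.07 in vehicle lung (SD, n = 4). The tight junction protein Cldn18 stood at 4.72 ± 0.15 and 12.09 ± 0.11. The retinoid-induced orphan receptor Gprc5a stood at 5.36 ± 0.29 and 12.28 ± 0.15. These 3 genes were bright in lung and below the array medians in cerebellum. The chloride intracellular channel family member Clic5 stood at 4.35 ± 0.13 and 11.18 ± 0.05, the water channel Aqp5 at 5.56 ± 0.17 and 11.12 ± 0.21, and the rhotekin family member Rtkn2 at 5.63 ± 0.15 and 9.28 ± 0.06.

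The other 4 members lay above the array medians in cerebellum as well. The kinase-anchoring protein Akap5, which is also a scaffold of synapses, was 7.61-fold higher in vehicle lung, and the tetraspan membrane protein Emp2 5.96-fold. The mucin-like glycoprotein Pdpn and the atypical homeodomain protein Hopx were 2.95-fold and 2.90-fold higher in vehicle lung. Every cerebellar array lay above 7 for Hopx, Pdpn, Akap5 and Emp2. For the other 6 members every cerebellar array lay under 6.5, at 4.20 to 6.33, below or close to the medians of all probe sets, so a change there can be compressed.

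**Figure D1:**
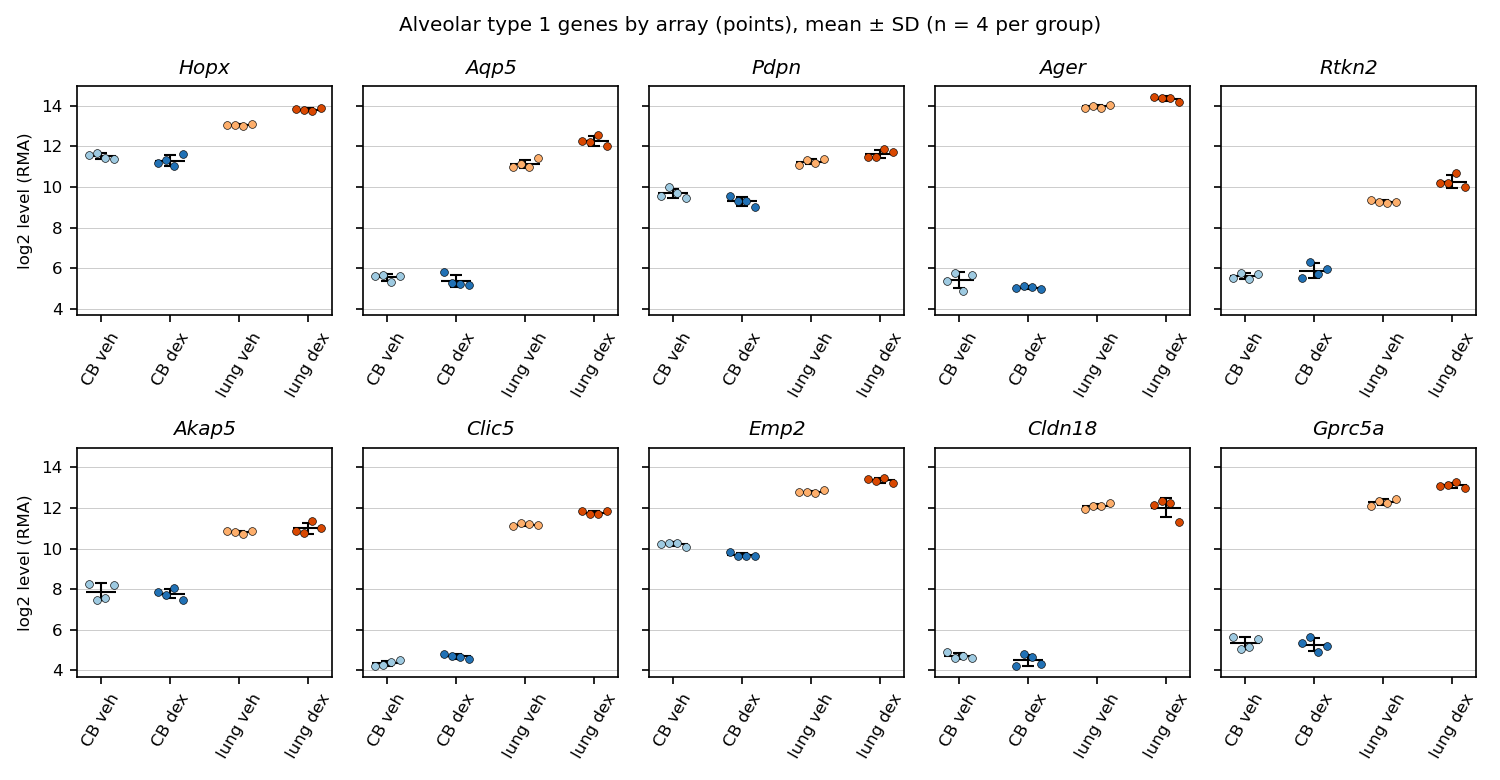
Log2 level (RMA) of each of the 10 members in the 16 arrays, 1 point per array, with the group mean and SD as bars (n = 4; CB is cerebellum, veh is vehicle and dex is dexamethasone). Every lung array lies above every cerebellar array for each member. The 4 dexamethasone lungs lie above the 4 vehicle lungs for 8 members and overlap with them for Akap5 and Cldn18.

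The bases just before the starts of the members were read for letters that the glucocorticoid receptor and lung factors are known to bind. The RefSeq table (GRCm38.p6) held 10 windows of 250 bases for 8 members, since Hopx and Cldn18 have 2 starts each; Rtkn2 and Gprc5a are not in it. Each window was searched on both strands. AGAACA, the core letters to which a single glucocorticoid receptor binds, was in 2 windows, and 16.1% of 32851 mouse promoters hold it. It lay 165 bases before the listed Clic5 start and 233 bases before the upstream Cldn18 start. That Clic5 start lies inside the gene, which spans chr17:44134762-44280169, so the window is not the one before the gene's first base. The GC box GGGCGG was in the windows of Aqp5, Akap5, Clic5 and Emp2, and in 32.7% of promoters. CTCAAG, a core of the lung factor NKX2-1, was in 1 Hopx window and in 13.3% of promoters. GGAATG, read by TEAD factors, and TGANTCA, read by AP-1, were in none of the 10, and in 12.6% and 6.75% of promoters.

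Of these windows, that of Aqp5 is shown because the gene had the largest rise with dexamethasone in lung by the brightest probe set. That of Clic5 is shown because its brightest probe set was higher in both organs. The upstream window of Cldn18 is shown because none of the gene's probe sets was called in either organ. The brightest probe sets of Ager and Akap5 were also called in neither, but other probe sets of both were called in lung. The windows lie at chr15:99590778-99591027 on the plus strand, chr17:44188322-44188571 on the plus strand and chr9:99717268-99717517 on the minus strand. Each is written 5′ to 3′ on the strand of the gene and ends at the base before the start. Capitals mark AGAACA and the GC box (CCGCCC on the other strand), and no matches overlap in these 3 windows.
Aqp5: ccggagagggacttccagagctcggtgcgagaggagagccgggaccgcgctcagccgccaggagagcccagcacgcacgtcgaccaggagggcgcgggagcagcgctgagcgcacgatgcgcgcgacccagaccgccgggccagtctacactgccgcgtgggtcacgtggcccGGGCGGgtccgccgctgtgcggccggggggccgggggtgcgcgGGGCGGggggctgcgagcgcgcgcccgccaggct
Clic5: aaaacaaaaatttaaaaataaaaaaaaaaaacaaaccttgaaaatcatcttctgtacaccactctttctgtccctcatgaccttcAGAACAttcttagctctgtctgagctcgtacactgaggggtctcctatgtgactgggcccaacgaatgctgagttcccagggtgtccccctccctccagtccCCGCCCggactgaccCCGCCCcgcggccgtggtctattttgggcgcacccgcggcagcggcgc
Cldn18: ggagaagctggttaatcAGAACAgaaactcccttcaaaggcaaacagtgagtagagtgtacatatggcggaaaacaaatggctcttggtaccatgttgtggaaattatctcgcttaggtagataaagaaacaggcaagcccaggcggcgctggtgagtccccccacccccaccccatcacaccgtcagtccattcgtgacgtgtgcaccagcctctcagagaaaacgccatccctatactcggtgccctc
The Aqp5 window held 2 GC boxes and no AGAACA, and the upstream Cldn18 window held AGAACA and no GC box. The other Cldn18 window held neither. Among windows not shown, that of Akap5, not called in lung by its brightest probe set, held GC boxes. Those of Hopx and Pdpn, both called higher in lung, held neither AGAACA nor a GC box. Any link between these letters and the response was not tested. A match of letters is a description of the window, and the windows leave out sites farther away.

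Dexamethasone raised 7 of the 10 members in lung and lowered none. In the same comparison 15.7% of all genes were called higher and 15.5% lower, so change was frequent among all genes. The lung arrays of the groups did not overlap for 8 members, all higher with dexamethasone, a pattern that 15.1% of all genes had. The median log2 change was 0.58 over the 10 members, against 0.05 over all genes. Seen by probe set, 15 of 20 were called higher and none lower, beside 10.7% and 13.3% of all probe sets, with a median of 0.71. Group means were highest in dexamethasone lung for every member except Cldn18.

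Aqp5, which lets water cross the apical membrane of type 1 cells, changed most among the members by the brightest probe set. Its levels in the dexamethasone lungs were 12.26, 12.20, 12.58 and 12.02 in arrays B28, B31, B40 and B46. In the vehicle lungs they were 10.97, 11.12, 10.99 and 11.42 in arrays B12, B14, B19 and B22. The lowest dexamethasone lung, B46, was still above the highest vehicle lung, B22. The change was 2.21-fold (log2 1.14 ± 0.15, SE; limma adjusted p = 3.05e-05). In cerebellum the levels stayed near the array medians, at 5.37 ± 0.30 with dexamethasone and 5.56 ± 0.17 with vehicle (SD, n = 4).

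Rtkn2, a member of the rhotekin family, came next. The dexamethasone lungs stood at 10.21, 10.18, 10.70 and 9.99, and the vehicle lungs at 9.37, 9.28, 9.22 and 9.26, in the same order of arrays. The vehicle lungs lay close together, and B40 was the highest of the dexamethasone lungs. The rise was 1.98-fold (log2 0.99 ± 0.16, limma adjusted p = 0.000181).

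Gprc5a, an orphan G protein-coupled receptor first known for its induction by retinoic acid, read 13.08, 13.12, 13.28 and 12.97 in the dexamethasone lungs and 12.10, 12.34, 12.24 and 12.46 in the vehicle lungs. The groups were apart by more than the range within either. It rose 1.78-fold (log2 0.83 ± 0.16, limma adjusted p = 0.000616).

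Hopx, a homeodomain protein that does not bind DNA itself and that marks type 1 differentiation, had the tightest groups. Its brightest probe set, 1428662_a_at, read 13.85, 13.78, 13.74 and 13.88 with dexamethasone and 13.07, 13.03, 13.00 and 13.08 with vehicle. It rose 1.70-fold (log2 0.77 ± 0.11, limma adjusted p = 7.83e-05). Its other probe set, 1451776_s_at, rose 2.05-fold, from 11.38 ± 0.03 to 12.41 ± 0.23 (SD, n = 4), and both probe sets were without overlap.

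Clic5 sits beside ezrin under the plasma membrane, and its window, before a start inside the gene, held AGAACA and 2 GC boxes. By its brightest probe set, 1439505_at, Clic5 rose 1.5-fold (log2 0.59 ± 0.08, limma adjusted p = 5.14e-05). The levels were 11.83, 11.70, 11.71 and 11.83 with dexamethasone and 11.13, 11.24, 11.20 and 11.14 with vehicle. All 4 of its probe sets were called higher, with log2 changes of 0.59, 0.69, 0.50 and 1.35. The largest of these came from 1431261_at, a dim probe set at 4.87 ± 0.33 in vehicle and 6.22 ± 0.47 in dexamethasone lungs (SD, n = 4).

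Emp2, a tetraspan protein of the PMP22 family, rose 1.48-fold by its brightest probe set, 1433670_at (log2 0.57 ± 0.08, limma adjusted p = 7.65e-05). The dexamethasone lungs read 13.41, 13.34, 13.45 and 13.21, and the vehicle lungs 12.77, 12.76, 12.71 and 12.88. Every dexamethasone lung was above every vehicle lung.

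Pdpn, also known as T1-alpha, links the apical membrane of type 1 cells to the actin cytoskeleton. It showed the smallest called rise, 1.31-fold (log2 0.39 ± 0.13, limma adjusted p = 0.0348). The dexamethasone lungs read 11.48, 11.48, 11.86 and 11.74, and the vehicle lungs 11.09, 11.32, 11.20 and 11.39. The gap between the groups was narrow, and the call was lost when any of B40, B46, B12, B14 or B19 was left out (adjusted p 0.0502 to 0.105).

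For 3 members the brightest probe set was not called. Ager, a receptor that is far more abundant in lung than elsewhere and binds S100 proteins, had levels of 14.42, 14.38, 14.40 and 14.17 with dexamethasone and 13.91, 14.01, 13.91 and 14.04 with vehicle by 1441958_s_at. These groups did not overlap, yet the log2 change of 0.38 ± 0.14 had a limma adjusted p of 0.0582. It was called when B46 of the lungs or B79 or B80 of the vehicle cerebella, which share the estimate of spread, was left out (adjusted p 0.0065 to 0.0462). That probe set lies close to the highest value on any array, 14.83, where differences can be compressed. The second probe set, 1420428_at, read 13.15, 13.09, 13.48 and 13.09 with dexamethasone and 12.32, 12.55, 12.31 and 12.70 with vehicle. It was called in the fit of all probe sets, at 1.66-fold (log2 0.73 ± 0.14, limma adjusted p = 0.000859). The name ending _s_at marks probe sets that can bind more than 1 transcript.

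Akap5, which anchors protein kinase A and calcineurin at membranes, gave different values by probe set. Its brightest, 1436142_at, read 10.87, 10.76, 11.33 and 10.99 with dexamethasone and 10.85, 10.80, 10.73 and 10.87 with vehicle. Those groups overlapped, and the log2 change was 0.18 ± 0.18 (limma adjusted p = 0.501). By contrast 1431717_at read 11.05, 11.30, 11.04 and 10.60 with dexamethasone and 9.69, 9.49, 9.70 and 9.56 with vehicle, a 2.62-fold rise (log2 1.39 ± 0.18, limma adjusted p = 2.75e-05). The third, 1447301_at, rose 2.16-fold, from 7.72 ± 0.15 to 8.84 ± 0.17 (SD, n = 4). With the 3 probe sets averaged, Akap5 was called higher (log2 0.89, limma adjusted p = 8.89e-05).

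Cldn18, a claudin of alveolar tight junctions, was the only member whose estimate was below 0 in lung. Its brightest probe set, 1449428_at, read 12.14, 12.36, 12.25 and 11.31 with dexamethasone and 11.95, 12.09, 12.10 and 12.22 with vehicle (log2 change -0.07 ± 0.19, limma adjusted p = 0.813). The other, 1425445_a_at, read 12.11, 12.15, 11.81 and 10.13 against 11.71, 11.69, 11.48 and 11.75. In both, array B46 was the lowest of the 8 lungs. The other 3 dexamethasone lungs lay within or above the range of the vehicle lungs. Without B46 the log2 change of the brightest probe set was 0.16 and was still not called (limma adjusted p = 0.426).

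**Figure D2:**
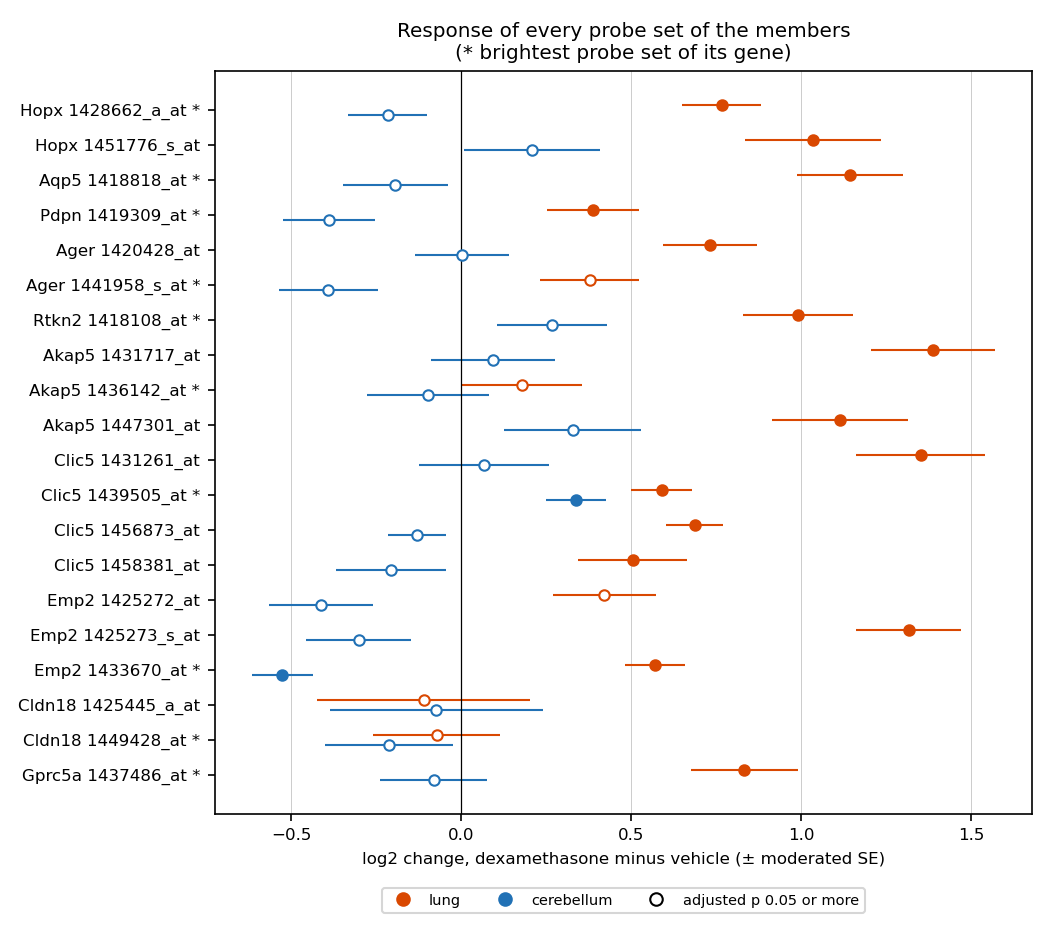
Log2 change with dexamethasone (x axis, moderated SE as bars) of each of the 20 probe sets of the members in lung and cerebellum; filled points were called in the fit of all probe sets. In lung 15 probe sets are filled and all lie to the right of 0. In cerebellum 1 Clic5 probe set and 1 Emp2 probe set are filled, on opposite sides of 0.

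Probe sets of the same gene were compared with each other in lung, in a comparison chosen after their values were seen. For each pair, the difference between the probe sets was taken in every array and compared between the groups by a two-sided exact permutation test. Of 15 pairs, 6 had groups that did not overlap, each at the smallest p this design allows, 0.0286, which became 0.0714 after Benjamini-Hochberg adjustment over the 15. No pair therefore passed the threshold. The log2 change of Akap5 was larger by 1.21 in 1431717_at than in 1436142_at. For Emp2 it was larger by 0.75 in 1425273_s_at, which rose 2.49-fold, than in 1433670_at, and for Ager by 0.35 in 1420428_at than in 1441958_s_at. The third Emp2 probe set, 1425272_at, had a log2 change of 0.42 ± 0.15 and was not called (limma adjusted p = 0.0546), and its lowest dexamethasone value, 12.07, came from B46.

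**Figure D3:**
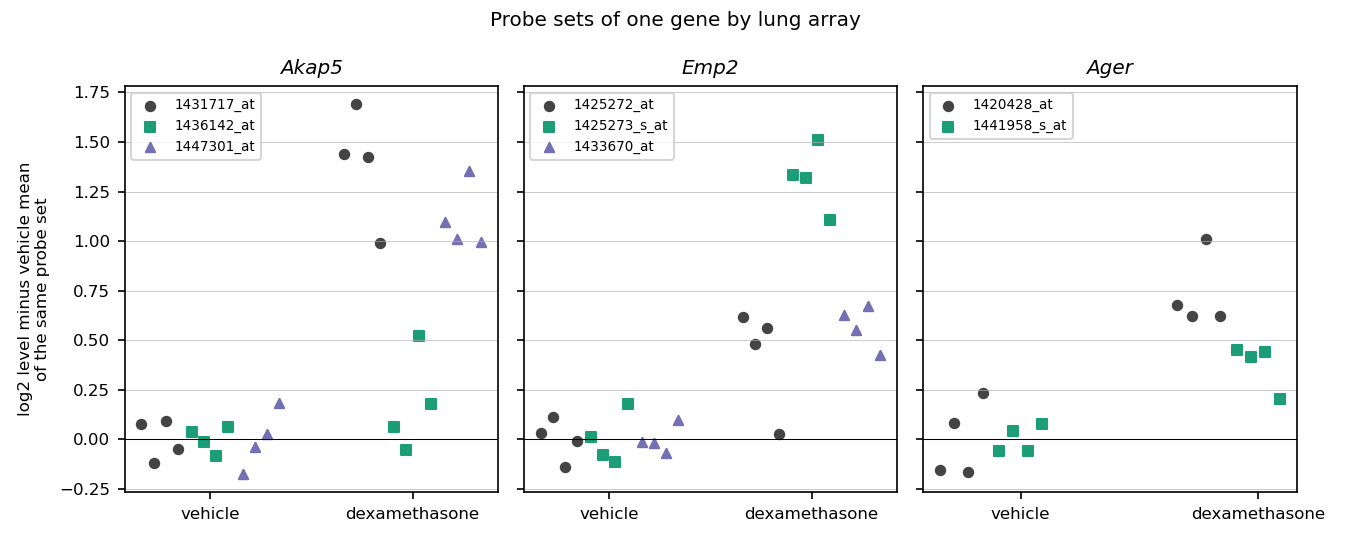
Log2 level of each probe set of Akap5, Emp2 and Ager in the 8 lung arrays, drawn as the difference from that probe set's own mean in the 4 vehicle lungs, 1 point per array. Probe sets 1431717_at and 1447301_at of Akap5 and 1425273_s_at of Emp2 shift by more than 1 on average with dexamethasone, while 1436142_at of Akap5 shifts by 0.18.

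In cerebellum 8 of the 10 members were not called. Clic5 was called higher and Emp2 lower, 2 of 10, beside 4.80% of all genes called in either direction, 2.84% higher and 1.97% lower. By probe set 1 of 20 was higher and 1 lower, beside 1.78% and 1.45% of all probe sets. The arrays of Clic5 and Emp2 did not overlap between the groups, beside 7.13% of all genes higher without overlap and 5.44% lower. The median log2 change was -0.20 over the members and 0.01 over all genes.

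Emp2 read 9.83, 9.62, 9.65 and 9.62 in the dexamethasone cerebella, arrays B39, B49, B50 and B52. In the vehicle cerebella, B78 to B81, it read 10.24, 10.25, 10.27 and 10.07. All dexamethasone cerebella were below all vehicle cerebella, a change of -0.53 ± 0.08 on the log2 scale, or 1.44-fold lower (limma adjusted p = 0.00174). The other Emp2 probe sets had changes of -0.41 and -0.30 and were not called (limma adjusted p = 0.184 and 0.410). With the 3 averaged the change was -0.41 and was not called (limma adjusted p = 0.0629).

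Emp2 thus moved in opposite directions in the 2 organs, higher in lung and lower in cerebellum. Markers of vessels also fell in the cerebellum, 5 of 8 endothelial genes with none higher, and their mean level was 6.77 to 6.96 with dexamethasone and 7.47 to 7.76 with vehicle. Tek, an endothelial receptor kinase, and Cdh5, the cadherin of endothelial junctions, were 2.38-fold and 2.16-fold lower there. Cdh5 went from 6.64 ± 0.24 with vehicle to 5.53 ± 0.18 with dexamethasone (SD, n = 4), below the array medians, where a change can be compressed. Leukocyte markers were lower for 4 of 7, with mean levels of 5.91 to 6.77 and 6.76 to 7.38. Of 7 fibroblast and myofibroblast markers 3 were lower and none higher, and their mean level was 8.21 to 8.46 with dexamethasone and 8.59 to 8.88 with vehicle. The collagen gene Col1a1 was 2.23-fold lower. Of 6 meningeal markers none was called, with a median log2 change of -0.34. None was called among 6 choroid plexus and 6 neuronal genes, and 1 of 6 astrocyte markers was higher. The part of these cells in the Emp2 change was not tested.

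Clic5 read 4.81, 4.73, 4.65 and 4.56 in the dexamethasone cerebella and 4.23, 4.27, 4.42 and 4.50 in the vehicle cerebella by its brightest probe set. The groups did not overlap, and the change was 1.26-fold (log2 0.34 ± 0.08, limma adjusted p = 0.0286). These levels are below the array medians, and the other 3 Clic5 probe sets had changes of 0.07, -0.13 and -0.21 and were not called. With all 4 averaged the change was 0.02 (limma adjusted p = 0.975). The call was also lost when B39, B49, B50, B78 or B79 was left out (adjusted p 0.0642 to 0.0888), and with the cerebellar arrays fitted alone (0.0863).

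Among members expressed in cerebellum, Pdpn had a log2 change of -0.39 ± 0.13 (limma adjusted p = 0.114). Its dexamethasone cerebella read 9.55, 9.30, 9.32 and 9.02, and its vehicle cerebella 9.58, 9.98, 9.71 and 9.47, so the groups overlapped. Hopx, which cerebellar astroglia also make, had a change of -0.22 ± 0.11 (limma adjusted p = 0.368). Akap5 had a change of -0.10 ± 0.18. Ager, at 5.05 ± 0.07 against 5.44 ± 0.40 (SD, n = 4), was called, among the alternatives tried, only when array B80 was left out (log2 -0.58, limma adjusted p = 0.00553).

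The response itself was compared between the organs with an interaction contrast. It was larger in lung for 7 of 10 members and smaller for none, beside 9.85% of all genes called larger and 11.5% called smaller. By probe set 14 of 20 were larger, beside 6.05% of all probe sets. The difference in log2 change was 1.34 ± 0.22 for Aqp5, 1.10 ± 0.12 for Emp2, 0.98 ± 0.16 for Hopx and 0.91 ± 0.22 for Gprc5a (limma adjusted p = 0.000393, 1.18e-05, 0.000407 and 0.00714). It was 0.78 ± 0.19 for Pdpn, 0.77 ± 0.20 for Ager and 0.72 ± 0.23 for Rtkn2 (limma adjusted p = 0.00716, 0.0132 and 0.0325). The Rtkn2 call was lost when any of B39, B50, B79, B81, B40, B14, B19 or B22 was left out (adjusted p 0.052 to 0.0657).

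Clic5, Akap5 and Cldn18 had differences of 0.25 ± 0.12, 0.28 ± 0.25 and 0.14 ± 0.27 that were not called (limma adjusted p = 0.153, 0.501 and 0.771). Averaging the probe sets gave 0.77 for Clic5 and 0.78 for Akap5, both called (limma adjusted p = 0.000456 and 0.00798). For Aqp5, Ager, Rtkn2, Gprc5a, Clic5 and Cldn18 the cerebellar levels were below or near the array medians. The part of compression there in these differences was not tested.

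The mean log2 level of the 10 members was 12.21 to 12.53 in dexamethasone lungs and 11.72 to 11.88 in vehicle lungs, without overlap. Array B40 was the highest and B46 the lowest of the dexamethasone lungs. In cerebellum it was 6.80 to 6.99 with dexamethasone and 6.89 to 7.10 with vehicle, and the groups overlapped. Averaging all probe sets first gave group means of 11.87 and 11.16 in lung.

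Within the lung groups, some members varied together and others did not. With the group means removed, over 8 lung arrays, the levels of Aqp5 and Gprc5a correlated at 0.92, those of Aqp5 and Emp2 at 0.90, and those of Ager and Emp2 at 0.89. Of all 45 pairs, 18 had a correlation below 0, and the median was 0.40. Hopx and Clic5 correlated with each other at 0.40, and each was below 0 with the other 8 members. Hopx reached -0.67, with Cldn18, and Clic5 reached -0.53, with Rtkn2. These arrays share the processing and the organ dissection, and the values are a description.

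Other genes of type 1 cells moved less evenly. Of 20 such genes listed, 19 were measured, 9 were called higher and 1 lower in lung. Their median log2 change was 0.38. Clic3, a relative of Clic5, rose 2.27-fold, the cytochrome P450 gene Cyp2b10 rose 5.65-fold and the calcium-binding protein S100a6 rose 2.22-fold. Igfbp2, an IGF-binding protein that marks mature type 1 cells, fell from 10.92 ± 0.18 to 7.90 ± 0.50 (SD, n = 4), which is 8.09-fold lower (log2 -3.02 ± 0.19, limma adjusted p = 1.45e-08). In cerebellum Igfbp2 stood at 10.84 ± 0.17 with vehicle and 10.72 ± 0.21 with dexamethasone (SD, n = 4). Its RNA is therefore not confined to type 1 cells in these organs, and which lung cells carried the fall was not tested. Caveolin 1, Cav1, which is shared with endothelium, had a change of -0.06 ± 0.13. In cerebellum none of the 19 was called higher and 2 were called lower. The difference between organs was called larger in lung for 8 and smaller for 1.

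Among 16 regulators of the alveolar epithelium, 4 were called higher and 5 lower in lung. Klf5 and Foxa2, transcription factors of the distal epithelium, rose 2.24-fold and 2.0-fold. Tead1, a DNA-binding partner of YAP and TAZ, fell 1.42-fold, and the histone deacetylase Hdac2 fell 1.48-fold. Of 31 measured relatives and binding partners of the members, 17 were higher and 4 lower. The claudins Cldn3 and Cldn4, relatives of Cldn18, rose 3.67-fold and 5.71-fold while Cldn18 itself was not called. Cldn4 rose from a level near the array medians, 5.98 ± 0.20, to 8.49 ± 0.65 (SD, n = 4). Aqp3, a water and glycerol channel related to Aqp5, rose 1.99-fold from a level near the array medians. S100b, a ligand of Ager, was called lower. It went from 6.11 ± 0.15 with vehicle, near the array medians, to 4.61 ± 0.22 with dexamethasone, below them (SD, n = 4). Of 8 genes induced by glucocorticoids in many tissues, 6 were higher in lung, and none was called in cerebellum. Among them the receptor cochaperone Fkbp5 rose 5.03-fold, from 7.97 ± 0.23 to 10.30 ± 0.83 (SD, n = 4). The mean level of the 8 was uneven with dexamethasone, at 10.24 to 10.70 in B28, B31 and B40 and 11.66 in B46. In vehicle lungs it was 9.06 to 9.38.

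Markers of other cells of the lung were set beside the members. Of 11 type 2 cell markers 8 were higher and none lower, led by the surfactant protein Sftpd at 2.03-fold. Their mean level was 13.12 to 13.22 with dexamethasone and 12.46 to 12.76 with vehicle. Of 6 genes of epithelium in general, 5 were higher, and of 7 airway markers 3 were higher. The member mean minus the type 2 mean was -0.91 to -0.69 with dexamethasone and -0.98 to -0.73 with vehicle, so these ranges overlapped. The member mean minus the mean of the general epithelial genes was 1.70 to 1.87 with dexamethasone and 1.89 to 2.05 with vehicle. That difference was smaller in every dexamethasone lung.

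Markers of the lung surface and of the heart rose too. All 5 mesothelial markers were higher, with Msln at 2.77-fold, and their mean level was 8.92 to 9.30 with dexamethasone and 8.07 to 8.42 with vehicle. Of 6 cardiac muscle markers 5 were higher, with the troponin Tnnt2 at 3.98-fold, and the mean level was 8.99 to 9.82 against 8.35 to 8.59. Nppa, the atrial natriuretic peptide, was near the bottom of the scale, at 4.50 ± 0.17 and 4.61 ± 0.13 (SD, n = 4). The cardiac mean was highest in B28 and the member mean in B40, and B46 was the lowest dexamethasone lung in both. Of 4 lymphatic markers only Mmrn1 was called, at 3.69-fold higher, and 3 of 7 leukocyte markers were higher and 1 lower. The lymphatic mean was 8.84 to 9.29 with dexamethasone and 8.27 to 8.55 with vehicle. The leukocyte mean was 9.84 to 10.26 and 9.44 to 9.56.

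Other lists fell in lung. Of 8 endothelial markers 5 were lower and none higher, and of 7 fibroblast and myofibroblast markers 4 were lower and none higher. All 5 proliferation markers were lower, and their mean level was 7.21 to 7.93 with dexamethasone and 10.02 to 10.52 with vehicle. The part of a changed mix of cells in the members' rise was not tested.

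**Figure D4:**
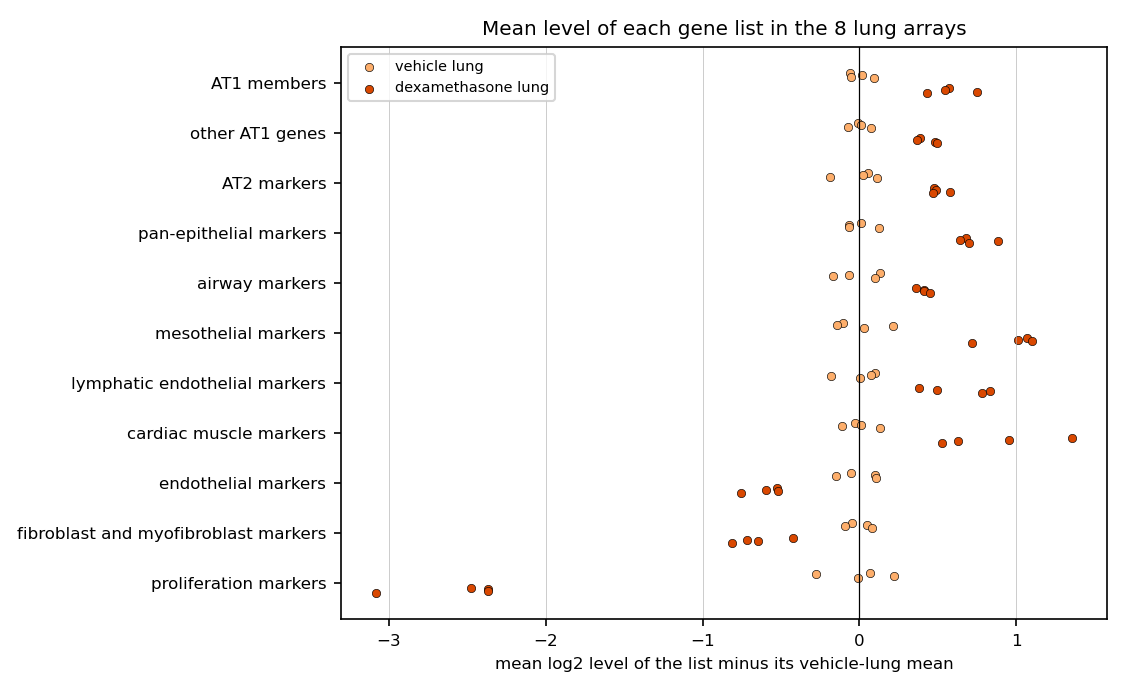
Mean log2 level of the 10 members and of marker lists of other cells in each of the 8 lung arrays, drawn as the difference from the list's mean in vehicle lung, 1 point per array. The members, other type 1, type 2, epithelial, airway, mesothelial, lymphatic and cardiac lists lie to the right of 0 in all 4 dexamethasone lungs. The endothelial, fibroblast and proliferation lists lie to the left.

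Genes whose pattern was nearest to the members were searched among 8196 genes with a mean of at least 8 in lung. The highest Pearson correlations with the member mean over the 8 lung arrays were those of Gja1, Kcnk2, Pkp2, Prr13 and Myh7, at 0.989 to 0.991. With group means removed they were 0.964, 0.99, 0.894, 0.972 and 0.931. Gja1 encodes a connexin, Kcnk2 a potassium channel, Pkp2 a desmosome protein and Myh7 a myosin heavy chain of heart and slow muscle. For Ager the nearest were Ephx1, Rtkn and Acsl5, at 0.985 to 0.991. For Hopx they were Plekhb2, Gstk1 and Chia1, at 0.994 to 0.9995, falling to 0.966, 0.578 and 0.481 with group means removed. For Aqp5 they were Prr13, Mettl26 and Wfdc2, at 0.987 to 0.989. These arrays share organ, treatment groups and processing, and the values are a description.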

How the data were processed

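The authors deposited a table of log2 values, which the submitters' processing notes say came from RMA without naming settings or a version. RMA corrects background, normalizes between arrays, summarises probes and gives every probe set a value whether or not its transcript is detected. Biotin-labelled cRNA made from total RNA was hybridised, per the labels' protocols. Of 45101 probe sets, 64 controls were left out. Of the rest, 34945 had 1 gene symbol in the annotation used here, 932 had several and 9160 had none. RefSeq gave the symbols of 18032 of 18193 genes, and no probe set with several symbols names a member.

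Each gene was represented by its probe set with the highest mean over 16 arrays. The model was that of limma (version 3.58.1, R 4.3.3), with a mean per group and a variance moderated by eBayes on 12 residual degrees of freedom. Benjamini-Hochberg adjustment ran over 18193 genes, or over 45037 probe sets in a separate fit of all probe sets. Errors beside log2 changes are moderated standard errors, and errors beside levels are SDs. The fit was tested on simulated data. The members, lists and tests were chosen with earlier results of these data known. All 10 members are named. From each other list the rule names at most 4 called genes, taken by adjusted p, or else the 2 brightest, and not all of these are printed. Cav1, Nppa, Tek, Cdh5 and Col1a1 were named after their values were seen. List genes that the annotation did not name on a probe set with 1 symbol were not analysed here.

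Alternatives were other probe set summaries, a dim gene filter, a second quantile or cyclic loess normalization, fits of 1 tissue, robust variance with a trend, array weights, an Xist covariate and fits without each array. Leaving out B46 and B39 together was chosen after seeing the data. The labels give all arrays the same hybridization date, so no batch could be tested.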

Additional observations from a re-analysis of the deposited data

Results flagged for a closer look

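Some arrays stood apart within their group of 4, where the gap from the highest or lowest array to the next, over the group's range, exceeded Dixon's 95% critical value. This held for 8 of 80 groups of a member's probe set, and chance gives about 1 in 20. In the dexamethasone lungs, Hopx probe set 1451776_s_at was 12.06 in B31 against 12.51 to 12.55 in the others. Ager probe set 1420428_at was 13.48 in B40 against 13.09 to 13.15. Ager probe set 1441958_s_at was 14.17 in B46 against 14.38 to 14.42, and Cldn18 probe set 1425445_a_at was 10.13 in B46 against 11.81 to 12.15. In the dexamethasone cerebella, array B39 was high for Akap5 probe set 1447301_at, at 6.02 against 4.83 to 4.91. It was also high for Emp2 probe set 1433670_at, at 9.83 against 9.62 to 9.65. In the vehicle cerebella, B81 was low for the same 2 probe sets. There Akap5 stood at 4.63 against 4.88 to 4.92, and Emp2 at 10.07 against 10.24 to 10.27.

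The response to dexamethasone differed between lung and cerebellum for 7 members, by the interaction contrast of limma. The difference in log2 change, lung minus cerebellum, was 0.98 for Hopx, 1.34 for Aqp5, 0.78 for Pdpn and 0.77 for Ager. It was 0.72 for Rtkn2, 1.10 for Emp2 and 0.91 for Gprc5a.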

How the results depend on the processing

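The count of members called in lung, 7, was 6 to 9 under the alternatives, all of them higher, and the count for the difference between organs, also 7, was 6 to 9. The count in cerebellum, 2, was less stable. It was 0 with a gene's probe sets averaged and 1 with cyclic loess, with the arrays of the tissue only, with a variance trend and robust estimation, with Xist as a covariate, and without arrays B46 and B39. Leaving out 1 array gave 1 to 3. The alternatives that lost a call lost that of Clic5, and averaging probe sets also lost that of Emp2.

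Cldn18 in lung turned positive with array weights (0.0838) and without B46 and B39 (0.16), and ranged from -0.19 to 0.16 when 1 array was left out. Akap5 in cerebellum turned positive with its probe sets averaged (0.11), and ranged from -0.24 to 0.0318 when 1 array was left out. Gprc5a in cerebellum ranged from -0.20 to 0.0452 when 1 array was left out. None of these was called, and the cause was not tested. Ager in lung was called under 9 of 26 alternatives, among them probe sets averaged (log2 0.55, limma adjusted p = 0.000672) and the lung arrays alone (0.0135). The Pdpn call in lung was also lost without B46 and B39 (adjusted p = 0.0623). The group means of the member level, with all probe sets averaged, were 11.87 and 11.16 in lung and 6.58 and 6.68 in cerebellum, with dexamethasone and vehicle.

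No paired analysis was possible because the groups share no replicate number. Arrays give no read depth. Levels near or below the array medians, which include 6 members in cerebellum, limit what a change there can show. So do levels of Ager close to the highest value in lung.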
